A study of Mus musculus with 9 samples.

Results

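Synaptic vesicle release depends on a set of proteins that dock vesicles at the presynaptic membrane, fuse them when calcium enters and recover the membrane afterwards, and 35 genes of this machinery were described here in sorted mouse hippocampal neurons. The 35 genes were taken as a named list and not picked by their measured levels. Earlier results of these data were known when the list was chosen, so the counts below are not from a blind choice. Each symbol was matched to 1 Ensembl identifier among the 51912 genes of the deposited tables. Of the 35 genes, 34 reached a mean of 1 CPM (counts scaled to a common library size, with TMM factors between libraries) and 1, Rims1, did not. The mice were male C57BL/6 animals carrying Cre recombinase under the Camk2a promoter, which is active in forebrain excitatory neurons. An rAAV5 vector, an adeno-associated virus of serotype 5, carried an mCherry gene that only Cre can switch on, so that vector-transduced Cre neurons fluoresced. Per the labels, 3 doses (2.88e+08, 2.88e+09 and 2.88e+10 vector genomes) were given, the lower one serving as the control, and the hippocampus was taken 3 weeks later. Its cells were dissociated with papain, DAPI was added against dead cells, and fluorescent cells were sorted and labelled as pyramidal neurons.

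The series holds 9 libraries. Every animal received the vector, and no library from uninjected mice was analysed here. The design text speaks of 3 groups of 3 biological replicates, but the labels tie no library to a group or dose. The column headers of the deposited tables carry a letter (H, M or L) and a number (1 to 3), which the labels do not explain. The letters are used below only as library names, no dose is attached to them, and libraries of a letter are set beside those of another by their values alone, with no p-value and no mean. A gene was called between letters when its 3 values in one lay all above its 3 values in the other and the medians were at least 1.5-fold apart.

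At the synapse, the SNARE proteins Snap25, Stx1a and Vamp2 zip together to fuse the vesicle with the plasma membrane. Synaptotagmins sense calcium, complexins hold and then release the assembled SNAREs, and Nsf with its adaptors takes the spent complexes apart. Scaffolds of the active zone place vesicles near calcium channels, synapsins hold a reserve pool, transporters fill vesicles with glutamate, and dynamin and its partners retrieve the membrane.

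Library totals ranged from 12136830 to 19151596 counts, and between 1.24% and 1.85% of them fell in the 35 genes. The libraries of 1 letter differed in how much they resembled each other. Over all genes, chi-square per degree of freedom between 2 libraries, which is near 1 for repeat sequencing of the same material, was 2.67 to 5.14 among the H libraries, 24.3 to 33.6 among the M libraries and 27.2 to 38.9 among the L libraries. Over the release genes alone it was 4.12 to 15.1, 91.7 to 199 and 89.2 to 149. Where libraries differ, this measure grows with a gene's counts, and most release genes had many. The values over release genes and over all genes therefore cannot be set against each other. The H libraries were thus close to each other without agreeing within sampling noise, and the labels speak of biological replication without naming animals, so a small spread among them may be technical. Close agreement within H also makes it easier for a gene not to overlap with H. Of 10 pyramidal neuron genes, 0 were at 0 in all libraries of a letter. The same held for 13 microglial genes, so this count does not bear on the pyramidal label. Genes of other cell types were present too, as given below.

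Promoters of 3 members on which the results turn are shown first. Syn1 was lower in the H and the M libraries than in the L libraries, Cplx1 had the largest difference of the members lower in the H libraries, and Syngr1 was the member called higher there. The sequences are RefSeq's, build GRCm38.p6, and run 5′ to 3′ on the strand of the gene from 250 bases before to 50 bases after the annotated start: chrX:20920869-20921168 on the minus strand for Syn1, chr5:108549978-108550277 on the minus strand for Cplx1 and chr15:80091084-80091383 on the plus strand for Syngr1. Capitals mark matches, on either strand, to a cyclic AMP response element (TGACGTCA), to the left arm of the RE1 element bound by the neuronal repressor REST (TTCAGCACC), to the EGR site (GCGGGGGCG) and to the GC box (GGGCGG).
Syn1: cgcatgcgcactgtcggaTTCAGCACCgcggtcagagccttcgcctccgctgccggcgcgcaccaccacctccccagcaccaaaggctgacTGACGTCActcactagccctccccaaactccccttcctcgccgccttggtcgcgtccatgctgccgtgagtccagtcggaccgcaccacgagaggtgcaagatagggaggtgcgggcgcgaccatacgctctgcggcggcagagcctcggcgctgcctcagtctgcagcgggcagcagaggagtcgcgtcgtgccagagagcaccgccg
Cplx1: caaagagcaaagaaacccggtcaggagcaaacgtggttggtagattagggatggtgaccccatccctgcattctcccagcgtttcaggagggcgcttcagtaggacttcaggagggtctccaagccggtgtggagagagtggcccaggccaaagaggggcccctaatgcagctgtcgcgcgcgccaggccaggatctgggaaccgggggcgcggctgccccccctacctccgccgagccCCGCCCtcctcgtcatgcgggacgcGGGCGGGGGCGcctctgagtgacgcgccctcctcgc
Syngr1: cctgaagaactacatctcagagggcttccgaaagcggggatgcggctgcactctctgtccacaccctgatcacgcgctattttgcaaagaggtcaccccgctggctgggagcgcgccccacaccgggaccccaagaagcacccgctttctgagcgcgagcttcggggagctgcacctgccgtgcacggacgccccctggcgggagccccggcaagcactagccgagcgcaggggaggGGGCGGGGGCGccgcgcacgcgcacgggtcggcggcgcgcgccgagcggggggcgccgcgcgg
Positions count from the annotated start, whose first base is 1 and follows -1. In Syn1 the RE1 left arm begins at position -232 and the cyclic AMP response element at position -159. In Cplx1 and in Syngr1 an EGR site overlaps a GC box, beginning at position 17 in Cplx1 and at -11 in Syngr1. The table held promoters for 26 of the 35 genes. Of these 26 genes, 20 (76.9%) had a GC box in at least 1 promoter, against 38.2% of the 27025 genes with a promoter. Counted by promoter, because some genes have several starts, the share was 54.1% of 37 against 35.7% of 32851. The median GC content was 61.3% in the members' promoters and 52.7% in all promoters. An EGR site was found in 3 members (11.5%, against 3.31% of genes), the RE1 left arm in 2, Syn1 and Unc13a (7.69%, against 0.433%), the RE1 right arm (GGACAGCGC) in Unc13a, and the cyclic AMP response element in 2, Syn1 and Napa (7.69%, against 2.03%). A TATA box (TATAAA) was found in 1 member, Sv2b, or 3.85% against 15.7% of genes. These matches describe the letters of the windows and say nothing of binding.

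The members as a set were lower in the H libraries. Their summed level was 12336, 12438 and 12532 CPM in H1 to H3, 15502, 16321 and 14204 CPM in M1 to M3 and 17625, 18362 and 17699 CPM in L1 to L3, so that all H libraries lay under all M libraries and these under all L libraries. Of the 34 genes that passed the minimum, 13 were called lower in the H libraries than in the L libraries, against 10.5% of the 14787 genes compared, and 1 was called higher, against 18.8%. The 13 were Stx1a, Syt5, Syn1, Syn2, Syp, Cplx1, Rab3a, Rims2, Slc17a6, Nsf, Syngr3, Amph and Doc2a, and the 1 was Syngr1. The median of the log2 ratio of H to L medians was -0.53 over the members and -0.04 over all genes compared. At 2-fold in place of 1.5-fold, the call rule kept 1 of the 13, Cplx1, where 2.96% of all genes were lower, and the other differences lay between 1.5-fold and 2-fold. Without L1, 2 members were called higher in H than in L, with the share of all genes not computed for that setting.

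By the median ratio, the members' levels in M lay nearer to those in L than to those in H. The median log2 ratio of H to M was -0.29. By chi-square per degree of freedom, which compares the members' relative levels, M was not nearer to L. It was 113 to 380 between M and L libraries and 124 to 225 between H and M libraries. Compared with L, 3 members were called lower in M (Syn1, Slc17a7 and Nsf), against 6.9% of all genes, and 0 were called higher, against 13.7%. The median log2 ratio of M to L was -0.15, against 0.01 over all genes. Between H and M, 5 members were called lower in H (Cplx1, Rab3a, Slc17a6, Syngr3 and Rph3a), against 9.52% of genes, and 3 higher (Syn3, Slc17a7 and Syngr1), against 13.4%. The 3 comparisons share libraries, so these counts are not separate evidence. The count of 3 for M under L varied with the M libraries used: it fell to 1 without M3 and rose to 5 without M2. Without M3 the count of H under M was 9. Without L2, 2 members were called higher in M than in L. The shares of all genes were not computed with a library left out.

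Counts under other thresholds are read against the same shares of all genes. With no minimum fold, 25 members lay under L in all H libraries (26.2% of genes did) and 1 above (24.7%). In M, 9 lay under L (15.5%) and 1 above (17%), while 19 lay lower in H than in M (21.3%) and 4 higher (23%). At 2-fold, 0 were higher in H than in L (15.1% of genes), and in M against L 1 was lower (2.89%) and 0 higher (11%). In H against M, 3 were lower at 2-fold (4.02%) and 0 higher (7.92%).

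**Figure D1:**
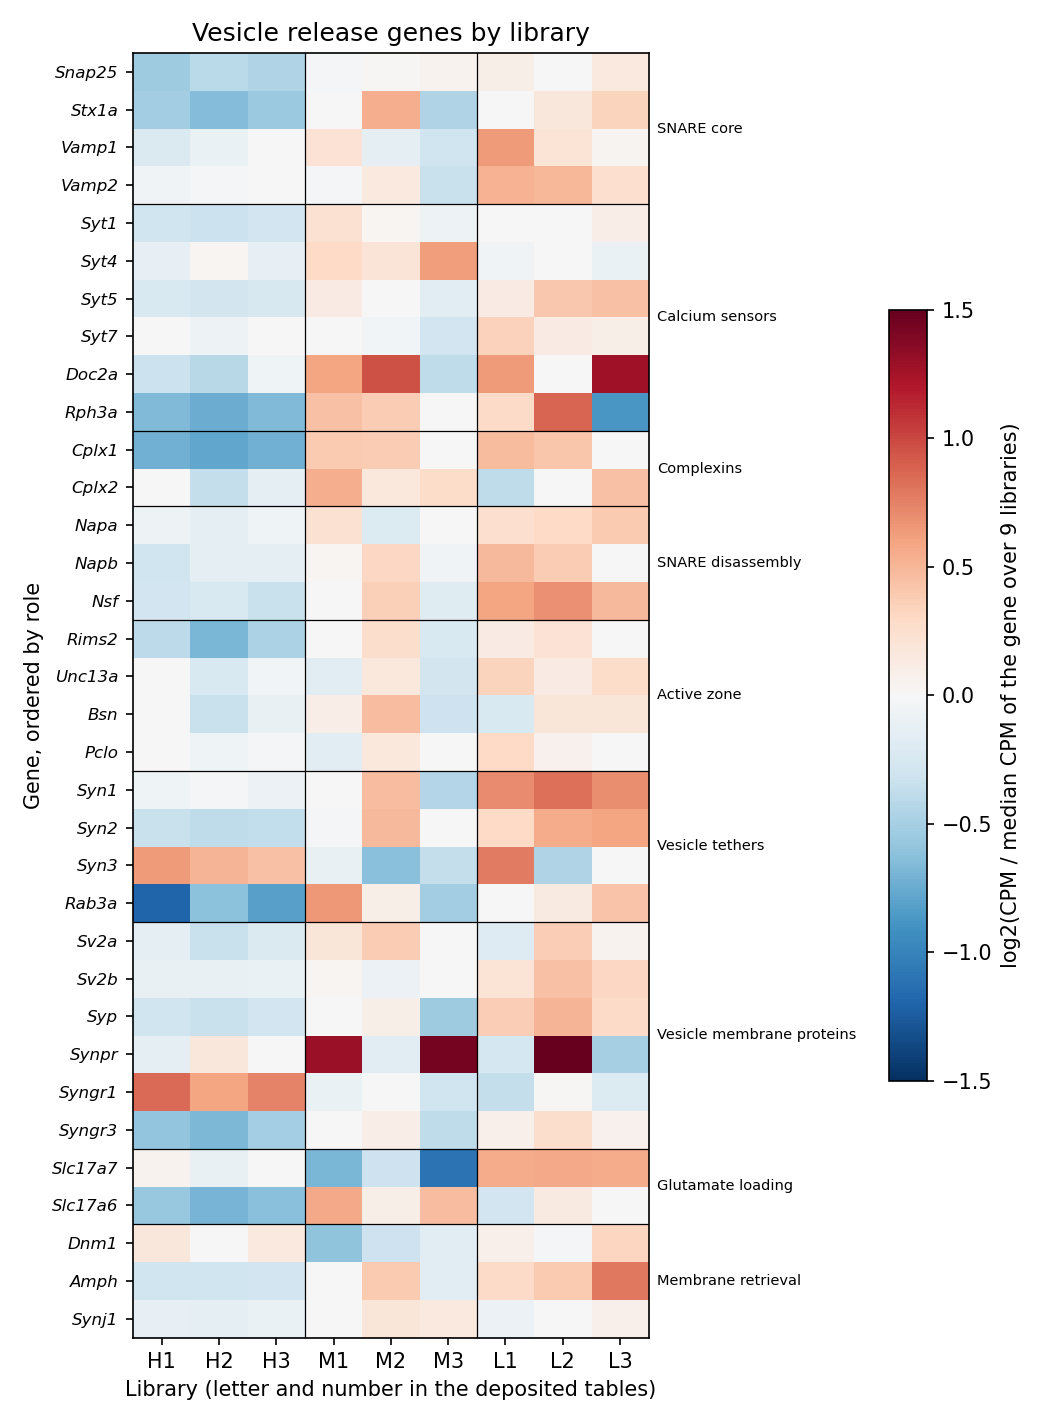
Level of each of 34 vesicle release genes (rows, ordered by role) in each of the 9 libraries (columns), as log2 of CPM over the gene's median CPM, with blue below and red above that median. Most rows are blue in H1 to H3 and pale or red in L1 to L3, Syngr1 runs the other way, and Synpr is high in M1, M3 and L2.

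General neuronal transcripts differed in the same direction. Of 17 pan-neuronal genes (genes expressed by neurons in general), 8 were called lower in H than in L and 0 higher, with a median log2 ratio of -0.58. Their summed level was 7074, 6738 and 6925 CPM in H1 to H3, 9774, 10516 and 7288 CPM in M1 to M3 and 10749, 10891 and 11374 CPM in L1 to L3. When each library was scaled to the geometric mean of those 17 genes, the median log2 ratio of H to L over the members was 0.00, against 0.49 over all genes, with 17 members under and 17 over 0. On this scale 1 member, Cplx1, was called lower in H than in L, where 1.58% of all genes were, and 2, Syn3 and Syngr1, were called higher, where 37.9% were. For M against L the median over members was -0.09, against 0.09 over all genes, with 2 called lower (Syn1 and Slc17a7), where 4.47% of genes were, and 0 higher, where 14.9% were. For H against M, 1 was called lower (Slc17a6), where 3.27% of genes were, and 4 higher (Syn3, Slc17a7, Syngr1 and Dnm1), where 30.6% were. The H median was under the L median with TMM factors and over it on the pan-neuronal scale for Vamp1, Vamp2, Syt1, Syt4, Syt7, Sv2a, Sv2b, Cplx2, Unc13a, Bsn, Pclo, Napa and Synj1, none of which was called, while the 13 called members stayed under. In bulk RNA, fewer cells of a type and less RNA per cell cannot be told apart.

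Several lists of markers of other cells were higher in H than in L. All 13 microglial genes were called higher in H than in L, and their sum was 18555, 17117 and 17769 CPM in H1 to H3, 6099, 4780.1 and 4856 CPM in M1 to M3 and 79.7, 145 and 27.5 CPM in L1 to L3. None was at 0 in all L libraries. The most abundant by mean over the 9 libraries, the complement genes C1qb and C1qc, reached 3925 and 3172 CPM in H1. They were at most 23.6 and 19.2 CPM in L. The 7 genes of border macrophages, also all called higher in H than in L, had their highest sum in M, from 399 to 406 CPM in H, 1588 to 2245 CPM in M and 2.22 to 17.0 CPM in L. Oligodendrocyte genes, 9 of 9 called higher in H than in L, summed from 621 to 644 CPM in H, 95.7 to 159 CPM in M and 31.8 to 60.6 CPM in L. Of 6 genes of oligodendrocyte precursors, 6 were called higher too. Of 7 plasma and B cell genes 5 were called higher in H than in L. Igkc and Jchain were at least 1046 CPM in all H libraries and at most 1.17 CPM in M and L, whereas Xbp1, which many cells express, measured 299 to 321 CPM in H, 191 to 348 CPM in M, 252 to 388 CPM in L. Of 7 T cell genes 5 were called higher, and 6 were at 0 in all L libraries, 3 in all M libraries and 0 in all H libraries. Cd4 made up most of what was left in M, at 10.5 to 13.1 CPM in H and 13.6 to 23.9 CPM in M, and was at 0 in L. Astrocyte genes followed less clearly: 2 of 9 were called higher in H than in L, where 18.8% of all genes were. Their sums ran from 239 to 249.8 CPM in H, 242 to 431 CPM in M and 118 to 242 CPM in L. The median sum of H was 1.79-fold that of L, and H and L overlapped only through L2. Of 6 endothelial genes 0 were called higher, but only 1 reached the minimum mean, so this list cannot show whether they differed. The part of these cells in the members' levels was not tested.

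**Figure D2:**
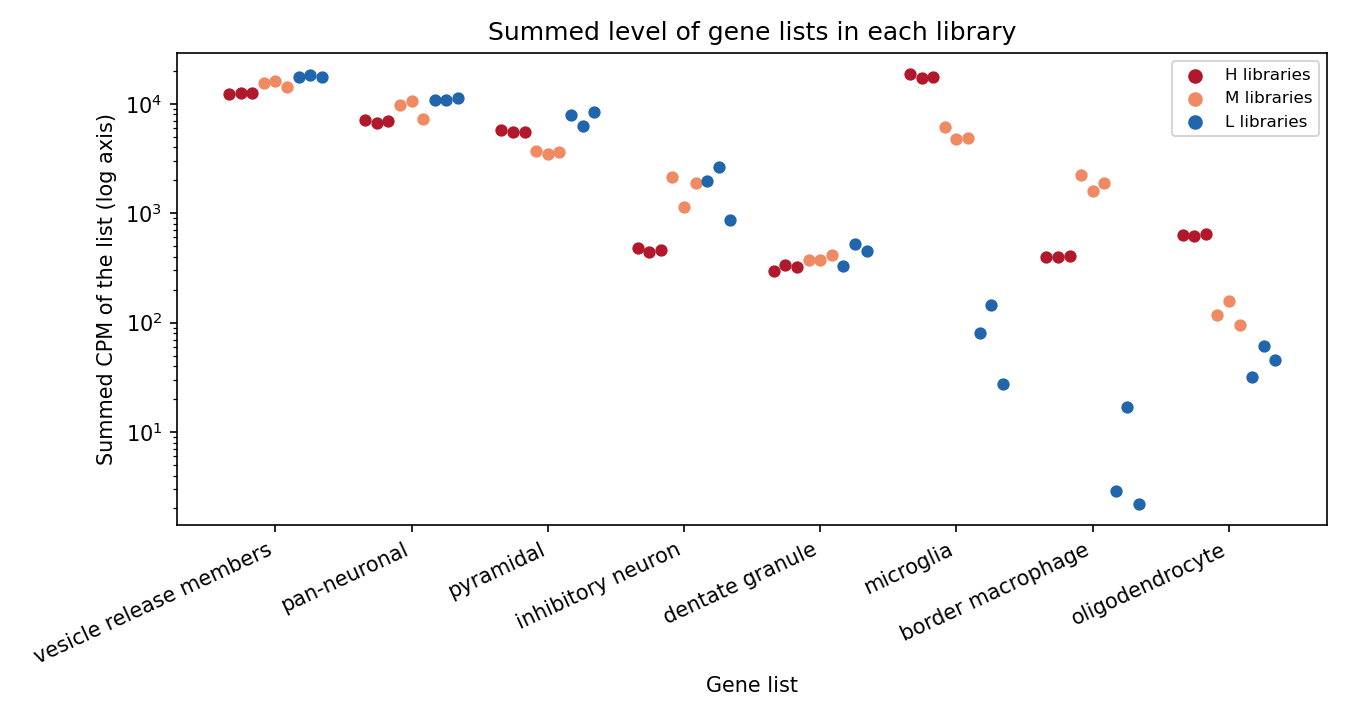
Summed CPM (log axis) of the vesicle release genes and of 7 marker lists, 1 point per library, in the order H1 to L3 within each list and coloured by letter. The members and the pan-neuronal genes are lowest in the H libraries, whereas the microglial sum runs from 17117 to 18555 CPM in H and from 27.5 to 145 CPM in L.

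**Figure D3:**
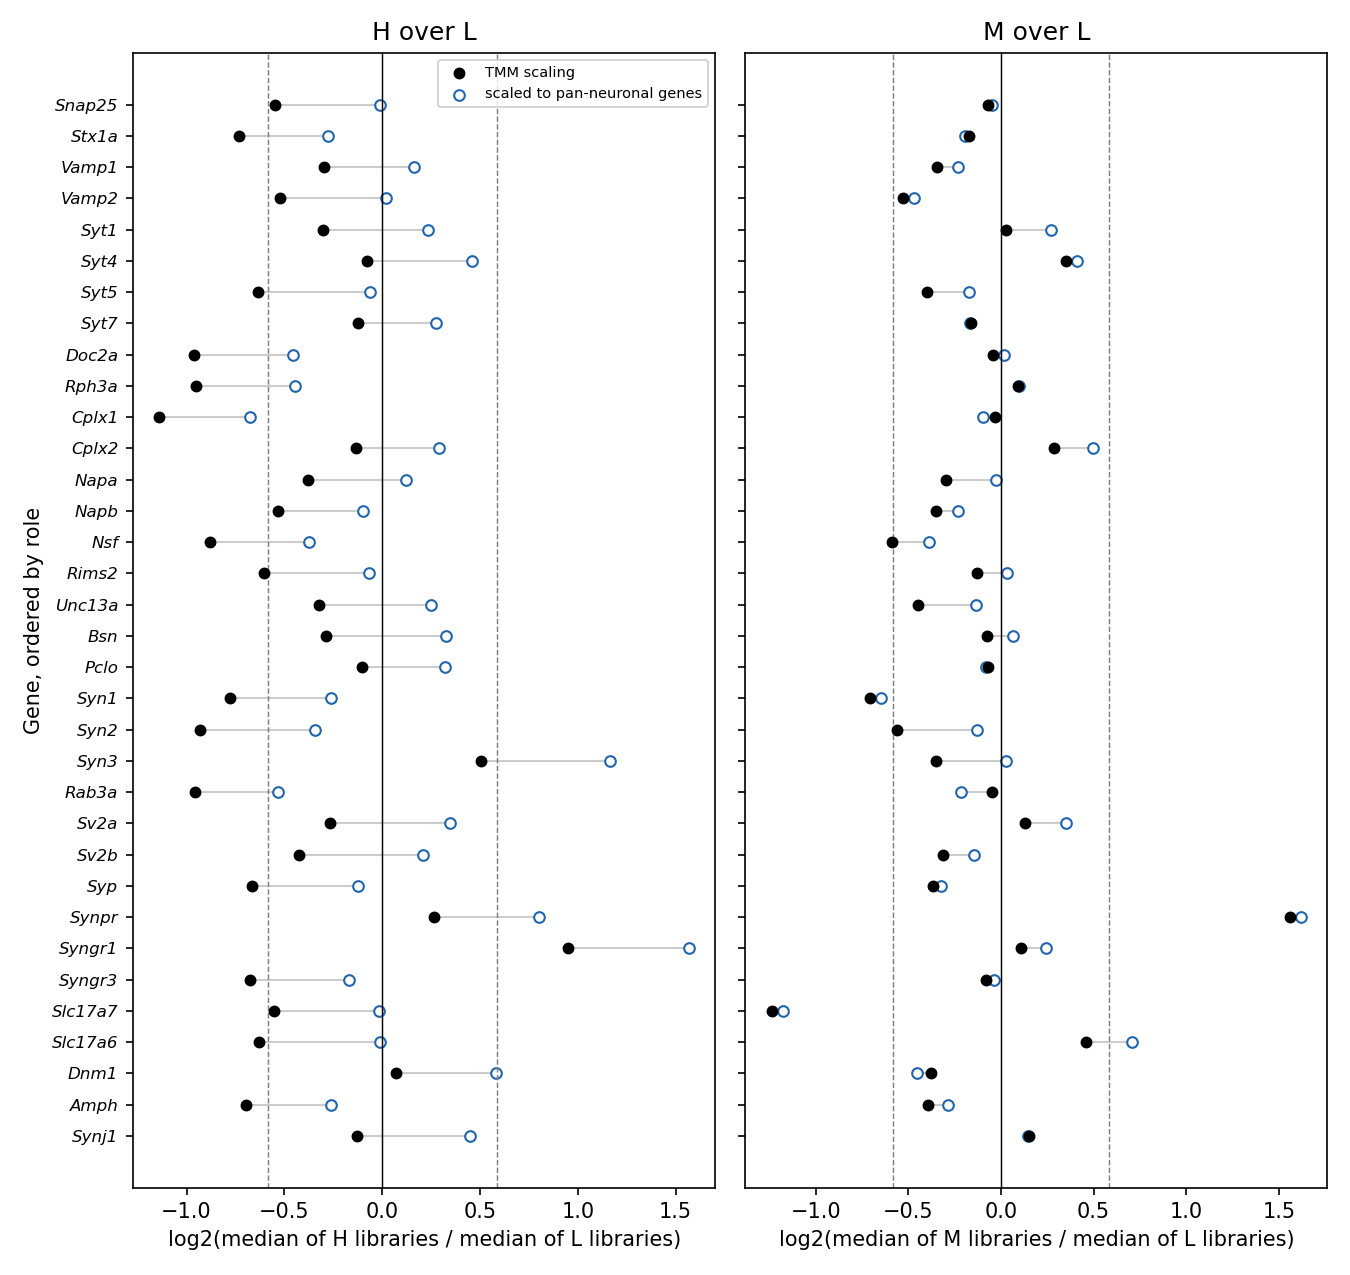
Log2 ratio of medians for 34 members, H over L on the left and M over L on the right, with TMM scaling (filled) and with scaling to 17 pan-neuronal genes (open). Dashed lines mark 1.5-fold, and the members' H over L ratios centre on -0.53 with TMM scaling and on 0.00 with pan-neuronal scaling.

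Among the core SNARE genes, 1 of 4 was called lower in H than in L. Stx1a, the plasma membrane syntaxin (ENSMUSG00000007207, chr5:135023482-135051100, build mm10), measured 91.4, 83.3 and 88.8 CPM in H1 to H3, 131, 190.2 and 95.7 CPM in M1 to M3 and 131, 147 and 165 CPM in L1 to L3. All H values lay under all others, the L median was 1.66-fold the H median, and M2 was the highest library. Snap25, the SNARE that joins syntaxin at the plasma membrane, measured 2834, 3094 and 2984 CPM in H1 to H3, 4043, 4150.0 and 4236 CPM in M1 to M3 and 4360.2, 4093 and 4530.3 CPM in L1 to L3. Its H values did not overlap those of L or M, but the L median was 1.46-fold that of H, short of the call threshold, and its M and L values overlapped. Vamp2, the vesicle SNARE, measured 915, 933 and 947 CPM in H1 to H3, 930.2, 1052 and 750.0 CPM in M1 to M3 and 1356, 1341 and 1130.3 CPM in L1 to L3, so that the L libraries stood above both other letters, by 1.44-fold over H. Its paralog Vamp1 ranged from 16.7 to 31.9 CPM. By deposited FPKM, which is per gene length, Snap25 had the highest median level of all members (607 FPKM), and the level of Vamp2 over Vamp1 was 104 to 151 in the 9 libraries. This ratio depends on the gene lengths used, as Vamp1 has 10167 annotated exonic bases and Vamp2 has 3809.

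Calcium sensors differed from one another. Syt1, the sensor of fast synchronous release, measured 1101, 1089 and 1113 CPM in H1 to H3, 1586, 1385 and 1292 CPM in M1 to M3 and 1360.4, 1359 and 1452 CPM in L1 to L3. It was lower in H than in M or L without overlap, by 1.24-fold against L. Syt5 measured 395, 383 and 393 CPM in H1 to H3, 506, 464 and 417 CPM in M1 to M3 and 504, 611 and 629.6 CPM in L1 to L3 and was called lower in H, its L median being 1.55-fold that of H. Syt4, a synaptotagmin that lacks normal calcium binding and is found on dense-core vesicles, measured 404, 451 and 404 CPM in H1 to H3, 544, 503 and 683 CPM in M1 to M3 and 427, 442 and 412 CPM in L1 to L3. Here H and L overlapped and the M libraries were all higher, so that the median of M was 1.28-fold that of L, short of the call threshold. An annotated antisense gene covers 14.5% of the exonic bases of Syt4, and whether strand was used in counting is not stated. Syt7, a high-affinity sensor, ranged from 30.2 to 46.7 CPM.

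Rabphilin and Doc2a, C2-domain proteins related to the synaptotagmins, varied more among the M and L libraries. Rph3a, which encodes rabphilin, an effector of Rab3, measured 31.96, 30.2 and 31.9 CPM in H1 to H3, 68.95, 65.8 and 50.7 CPM in M1 to M3 and 61.8, 92.6 and 27.6 CPM in L1 to L3. M values lay above H values by 2.06-fold at the median, but L3 was the lowest library of all, so H and L overlapped. Doc2a, a sensor linked to asynchronous and spontaneous release, measured 2.87, 2.69 and 3.43 CPM in H1 to H3, 5.42, 6.96 and 2.76 CPM in M1 to M3 and 5.58, 3.59 and 8.69 CPM in L1 to L3, from 35 to 141 counts per library. Its L median was 1.95-fold its H median. Exons of Ino80e on the other strand cover 39.4% of the exonic bases of Doc2a, which makes its level uncertain.

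The complexins parted. Cplx1 (chr5:108518554-108550024) measured 174, 167 and 174 CPM in H1 to H3, 379, 374 and 287 CPM in M1 to M3 and 399, 383 and 288 CPM in L1 to L3. The H libraries lay under all others and close together, and both the L and the M medians were over 2-fold the H median, at 2.20-fold and 2.15-fold. Cplx2, its paralog, measured 163, 128 and 148 CPM in H1 to H3, 238, 182 and 198 CPM in M1 to M3 and 126, 162 and 222 CPM in L1 to L3, with H and L overlapping. Within a library, the FPKM of Cplx1 over that of Cplx2 had a median of 2.65 in H, 3.58 in M and 5.32 in L, a ratio that does not depend on the scaling between libraries. L3, at 2.92, fell within the range of the H libraries. Genes of inhibitory neurons, cells that also express Cplx1, were low in the H libraries as well. The sum of 12 such genes was 481, 445 and 466 CPM in H1 to H3, 2141, 1139 and 1880.1 CPM in M1 to M3 and 1954, 2632 and 860.1 CPM in L1 to L3, with 9 called lower in H than in L and 10 lower in H than in M. The most abundant was Sst (somatostatin), at 111 to 147 CPM in H, 334 to 503 CPM in M, 81.05 to 517 CPM in L. Cnr1, next in level, measured 117 to 132 CPM in H, 340.0 to 485 CPM in M, 213 to 308 CPM in L. The part of these cells in the level of Cplx1 was not tested.

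Genes of SNARE disassembly included Nsf, the ATPase that unwinds SNARE complexes (chr11:103821782-103954056). It measured 827, 867 and 804 CPM in H1 to H3, 1012, 1294 and 891 CPM in M1 to M3 and 1524, 1622 and 1413 CPM in L1 to L3. The 3 letters did not overlap, and the L median was 1.84-fold that of H and 1.51-fold that of M. Napa, the alpha-SNAP adaptor that brings Nsf to the complex, measured 546, 523 and 554 CPM in H1 to H3, 677, 502 and 578 CPM in M1 to M3 and 689, 711 and 759 CPM in L1 to L3. H and L did not overlap there either, but the medians were 1.30-fold apart. Napb, the neuronal beta-SNAP, had an L median 1.45-fold that of H, with values from 493 to 851 CPM.

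Of the 4 active zone genes that passed the minimum, 1 was called. Rims2, a scaffold that binds Rab3 on the vesicle, measured 36.96, 30.2 and 34.8 CPM in H1 to H3, 48.4, 57.99 and 41.4 CPM in M1 to M3 and 52.9, 56.3 and 48.4 CPM in L1 to L3 and was called lower in H, with the L median 1.52-fold that of H, just past the threshold. Bsn and Pclo, the giant scaffolds bassoon and piccolo, ranged from 65.6 to 115 CPM and 157 to 217 CPM. For Unc13a, which primes vesicles for fusion, the range was 39.3 to 60.1 CPM, and its medians were at most 1.37-fold apart. Rims1 had 0 to 2 counts in every library (1, 1, 2, 1, 1, 1, 1, 0 and 0 in H1 to L3). A count of 0 allows up to 3 counts, or 0.183 CPM in L2 and 0.185 CPM in L3, counting error only, so no difference was detectable at this depth. In GENCODE release M21 no other gene's exons overlap those of Rims1, and the annotation behind the deposited counts is not stated.

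Of the 4 genes that tether or hold vesicles, 3 were called lower in H than in L. Syn1, the synapsin that clusters vesicles in the reserve pool (chrX:20860511-20921004), measured 353, 362 and 349 CPM in H1 to H3, 370.5, 509.7 and 272 CPM in M1 to M3 and 606, 657 and 603 CPM in L1 to L3. The L libraries stood above every H and M library, with a median 1.72-fold that of H and 1.64-fold that of M, while M2 lay well above M1 and M3. Syn2 measured 448, 436 and 438 CPM in H1 to H3, 556, 793 and 566 CPM in M1 to M3 and 699.6, 835 and 855 CPM in L1 to L3, and the L median was 1.91-fold that of H, with M and L overlapping through M2. Syn3, a synapsin of low level here, measured 10.2, 9.37 and 8.92 CPM in H1 to H3, 6.11, 4.28 and 5.16 CPM in M1 to M3 and 11.3, 4.81 and 6.59 CPM in L1 to L3 and was higher in H than in M, by 1.82-fold, with L1 the highest library. Exons of Timp3 on the other strand cover 14.1% of the exonic bases of Syn3. Rab3a, the vesicle GTPase, had 10 to 56 counts per library and measured 0.820, 1.23 and 1.07 CPM in H1 to H3, 2.95, 2.00 and 1.31 CPM in M1 to M3 and 1.88, 2.07 and 2.53 CPM in L1 to L3. Its H values lay under the others, by 1.94-fold against L at the median, and rested on 10, 16 and 14 counts. With so few counts and the annotation behind them not stated, its level is uncertain. With a minimum mean of 10 CPM, which leaves out Rab3a, Doc2a and Syn3, 11 members were called lower in H than in L. In H against M, 4 were called lower and 2 higher. The share of all genes at this minimum was not computed.

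**Figure D4:**
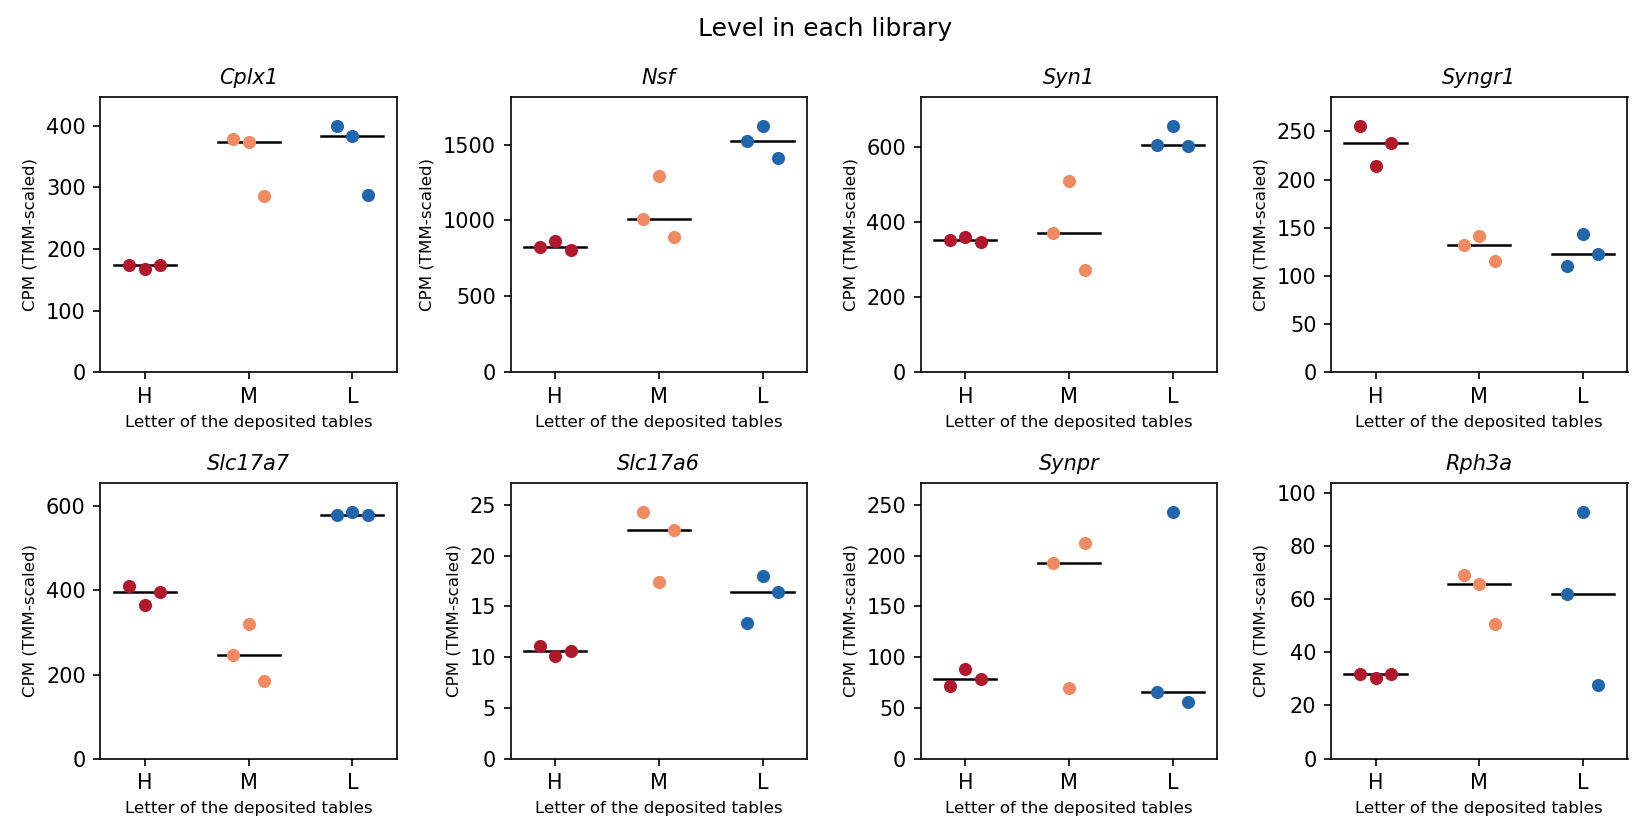
CPM in each library (points) and the median of 3 (bar) by letter for 8 members, with linear axes from 0. All H values of Cplx1, Nsf and Syn1 are under all L values, Syngr1 is highest in H, Slc17a7 is lowest in M, and Synpr and Rph3a are spread widely among the L libraries.

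Vesicle membrane proteins held the member that went the other way. Syngr1, a synaptogyrin related to synaptophysin (chr15:80091334-80119501), measured 256, 214 and 238 CPM in H1 to H3, 132, 142 and 116 CPM in M1 to M3 and 110.4, 144 and 123 CPM in L1 to L3. All H libraries were above all others, and the H median was 1.93-fold that of L and 1.80-fold that of M. Syngr3, its paralog, measured 435, 412 and 463 CPM in H1 to H3, 658, 703 and 505 CPM in M1 to M3 and 695, 789 and 688 CPM in L1 to L3 and was called lower in H than in L (1.60-fold at the median) and than in M (1.51-fold). The FPKM of Syngr3 over that of Syngr1 was 3.95, 4.47 and 4.53 in the H libraries, 11.5, 11.5 and 10.1 in the M libraries and 14.6, 12.7 and 12.98 in the L libraries, so that H did not overlap the rest. The microglial sum given above was highest in the same H libraries as Syngr1. So were the sums of the oligodendrocyte, oligodendrocyte precursor, plasma and B cell and T cell lists. The microglial sum was also higher in all M than in all L libraries, whereas the M and L values of Syngr1 overlapped. The part of any of these cells in the level of Syngr1 was not tested.

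Syp, or synaptophysin, a major protein of the vesicle membrane, measured 869.7, 845 and 879 CPM in H1 to H3, 1069, 1139 and 737 CPM in M1 to M3 and 1378, 1522 and 1302 CPM in L1 to L3. M3 was the lowest library, the L libraries were the highest, and the L median was 1.58-fold that of H. An antisense gene covers 16.8% of the exonic bases of Syp. Sv2a, the target of levetiracetam, ranged from 166 to 272 CPM with H and L overlapping. For Sv2b the range was 290.3 to 424 CPM, and L lay above both other letters by 1.34-fold over H. Synpr, or synaptoporin, found in mossy fibre terminals and in some interneurons, measured 71.4, 88.4 and 78.3 CPM in H1 to H3, 193, 69.8 and 212 CPM in M1 to M3 and 65.3, 243 and 55.3 CPM in L1 to L3, the largest fold range of any member. High values in M1, M3 and L2 were not shared by the other libraries of their letters, and all 3 letters overlapped.

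The glutamate transporters separated the M libraries. Slc17a7, the vesicular transporter VGLUT1 of cortical and hippocampal excitatory neurons (chr7:45163949-45176142), measured 411, 366 and 395 CPM in H1 to H3, 246, 319 and 184 CPM in M1 to M3 and 579.9, 586 and 579 CPM in L1 to L3. All 3 letters were apart, with L highest and M lowest, and the L median was 2.36-fold the M median and 1.47-fold the H median. Slc17a6, VGLUT2, was rarer and measured 11.1, 10.1 and 10.6 CPM in H1 to H3, 24.3, 17.4 and 22.5 CPM in M1 to M3 and 13.4, 18.03 and 16.4 CPM in L1 to L3, so the M and L libraries lay above the H libraries, by 2.13-fold and 1.55-fold at the median. The FPKM of Slc17a7 over that of Slc17a6 was 37.2, 36.2 and 37.4 in H, 10.1, 18.4 and 8.18 in M and 43.3, 32.6 and 35.4 in L. M was below both other letters in this ratio, and H and L overlapped. The sum of 10 pyramidal neuron genes was lowest in M too, at 5715, 5468 and 5519 CPM in H1 to H3, 3736, 3508 and 3618 CPM in M1 to M3 and 7967, 6285 and 8340.2 CPM in L1 to L3. Not every gene of the list did so. In M against L, 3 were called lower (6.9% of all genes were) and 0 higher (13.7%). In H against M, 4 were called higher (13.4%) and 0 lower (9.52%). Neurod2 measured 66.2 to 92.9 CPM in M and 57.5 to 86.7 CPM in L. Nrgn, its most abundant gene, measured 1431 to 1894 CPM in H, 576 to 691 CPM in M, 2230.1 to 4203 CPM in L. Gria2, next in level, measured 1533 to 1732 CPM in H, 1224 to 1621 CPM in M, 1686 to 1965 CPM in L. The part of these cells in the level of Slc17a7 was not tested.

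Among the 3 genes of membrane retrieval, 1 was called. Dnm1, the neuronal dynamin that cuts vesicles from the membrane, measured 256, 228 and 252 CPM in H1 to H3, 149.8, 184 and 202 CPM in M1 to M3 and 240.1, 225 and 286 CPM in L1 to L3. H and L overlapped, and the M libraries were lower than both, by 1.30-fold under L. Amph, or amphiphysin, which recruits dynamin, measured 88.3, 88.5 and 89.2 CPM in H1 to H3, 109, 143 and 97.5 CPM in M1 to M3 and 133, 143 and 189 CPM in L1 to L3 and was called lower in H, its L median being 1.62-fold that of H. Synj1, the phosphatase synaptojanin that helps shed the clathrin coat, had the smallest fold range of any member that passed, 264 to 331 CPM, or 1.25-fold between the highest and lowest library.

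Across the 34 members the lowest library was an H library for 19, an M library for 11 and an L library for 4. The highest was an L library for 23, an M library for 10 and an H library for 1. The order of medians was H, then M, then L for 18 members. No share of all genes was computed for these counts, so they describe the members alone. The H median was under the L median for 30 members (88.2%), against 52.5% of all genes. Within letters, the highest over the lowest library had a median of 1.09 among H, 1.38 among M and 1.24 among L, and reached 2-fold for 0, 3 and 4 members. Over all 9 libraries it was 1.91 at the median and at least 2-fold for 14 members.

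**Figure D5:**
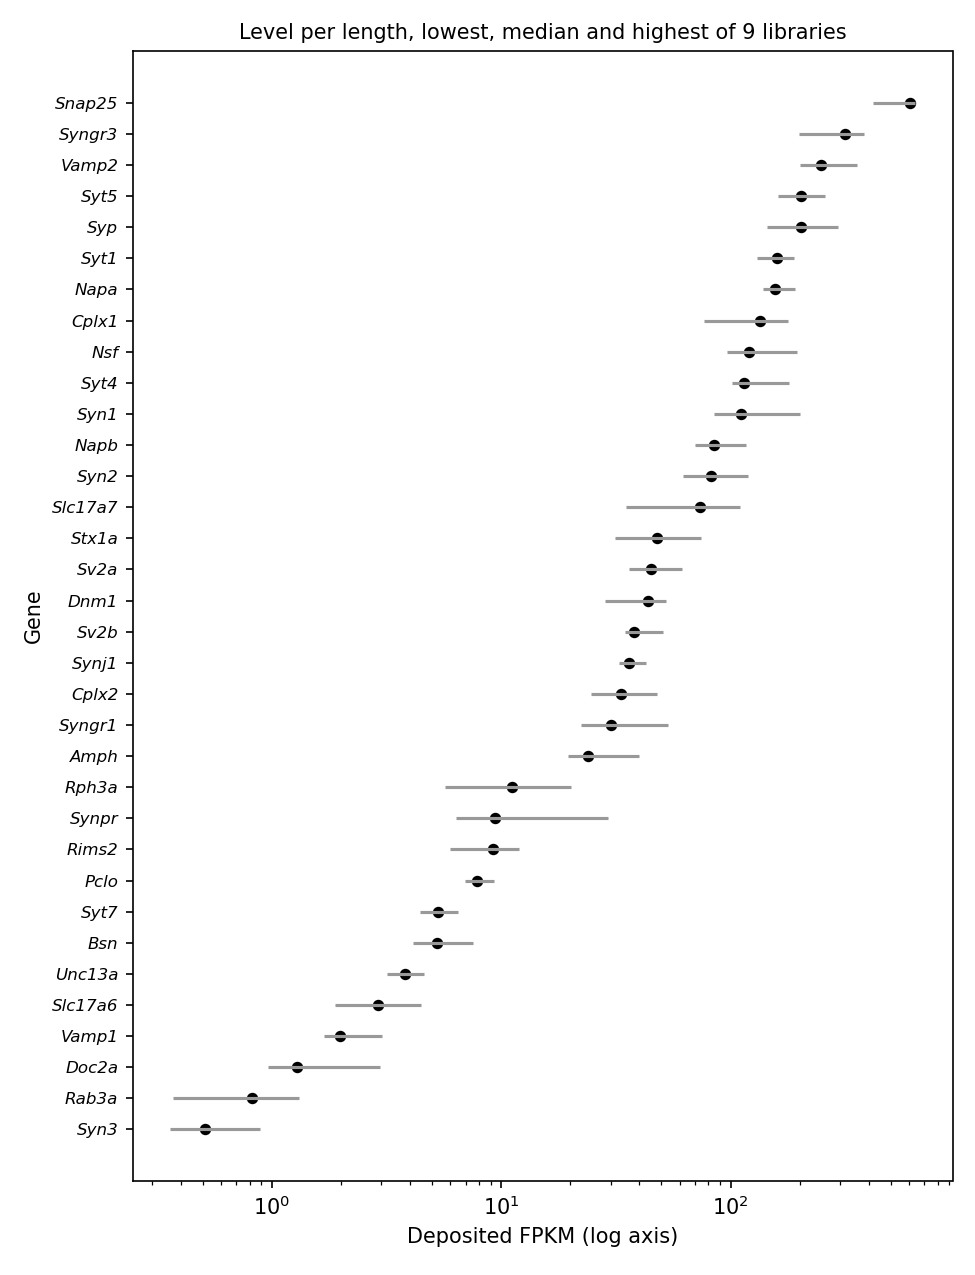
Deposited FPKM (log axis) of 34 members, with the point at the median and the line from the lowest to the highest of the 9 libraries. Snap25 is highest with a median of 607 FPKM, and Syn3 is lowest among those shown, with a median of 0.51 FPKM.

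Levels per length ran from 607 FPKM for Snap25 to 0.01 FPKM for Rims1. After Snap25, the highest median FPKM values were those of Syngr3 (315), Vamp2 (249), Syt5 (204) and Syp (203). The active zone genes Rims2, Pclo, Bsn and Unc13a had medians of 9.20, 7.85, 5.23 and 3.80 FPKM, above Vamp1 (1.99). By role, core SNARE genes held 30.5% to 35.9% of the members' summed CPM in every library, and the glutamate transporters 1.46% to 2.06% in M against 3.03% to 3.42% in H and 3.29% to 3.37% in L. The complexins held 2.37% to 2.74% in H, 3.41% to 3.98% in M and 2.88% to 2.98% in L.

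Other genes of the release cycle were read from a list of 78, of which 77 had an identifier in the tables and 74 passed the minimum. In H against L, 17 (23.0%) were called lower and 4 (5.41%) higher, against 10.5% and 18.8% of all genes, with a median log2 ratio of -0.26. In M against L, 3 (4.05%) were called lower and 7 (9.46%) higher, both under the 6.9% and 13.7% of all genes. In H against M, 14 (18.9%) were lower and 5 (6.76%) higher, against 9.52% and 13.4%. The largest difference upward was that of Syngr2, a synaptogyrin of many non-neuronal tissues, at 93.1, 92.1 and 93.6 CPM in H1 to H3, 25.4, 16.5 and 20.7 CPM in M1 to M3 and 0, 1.22 and 0.308 CPM in L1 to L3. Ppfia4, a liprin of the active zone, measured 58.6, 61.7 and 58.5 CPM in H1 to H3, 20.2, 15.9 and 15.6 CPM in M1 to M3 and 8.68, 12.9 and 9.98 CPM in L1 to L3, and Dnm2, the dynamin of all cells, 44.3, 38.9 and 46.7 CPM in H1 to H3, 34.7, 39.4 and 30.3 CPM in M1 to M3 and 16.4, 15.96 and 12.02 CPM in L1 to L3. H lay above L without overlap in all 3 genes. Downward the largest was that of Sncg, gamma-synuclein, at 3.93, 1.77 and 2.13 CPM in H1 to H3, 38.5, 20.0 and 28.6 CPM in M1 to M3 and 3.97, 11.8 and 12.3 CPM in L1 to L3. Syt17 measured 65.97, 58.4 and 64.4 CPM in H1 to H3, 119.9, 159 and 100.4 CPM in M1 to M3 and 111, 169 and 199 CPM in L1 to L3, and Slc32a1, the vesicular transporter of GABA, 0.574, 0.538 and 0.610 CPM in H1 to H3, 2.95, 0.896 and 1.82 CPM in M1 to M3 and 1.35, 2.44 and 1.05 CPM in L1 to L3. H values of these 3 genes were all under the L values, and Slc32a1 rested on few counts. For Sncg the margin was narrow, at 3.93 CPM in H1 against 3.97 CPM in L1, and its H levels were low.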

How the data were processed

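RNA-seq counts of 9 libraries of sorted hippocampal neurons were used. For each library and Ensembl gene the deposited table holds 2 values, an unnormalized read count and an FPKM, per the file headers. Tools listed in the submitters' processing notes are HTSeq 0.6.1, HISAT2 2.0.1, Trimmomatic 0.30 and bcl2fastq 2.17.1.14, with build mm10. How each was run, whether strand was used and which annotation was counted are not stated, so genes with overlapping neighbours or close copies are uncertain. CPM values were computed from the counts with edgeR 4.0.16 in R 4.3.3, using TMM factors. The deposited FPKM values were used as they stand to compare levels between genes, and such comparisons depend on the gene lengths used. Symbols came from a table of gene names, where 51633 of 51912 identifiers were found, coordinates from GENCODE M21 (mm10), and promoters from RefSeq on GRCm38.p6.

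Of 9 libraries 0 have a group in the labels, so no test was run. Values are given per library and compared by the letter in the column headers. Comparison was limited to genes whose mean reached 1 CPM, and the call rule required no overlap and medians at least 1.5-fold apart. Alternatives were total-count CPM, DESeq2 1.42.0 size factors, scaling to 17 pan-neuronal genes, no minimum or 10 CPM, no minimum fold or 2-fold, pseudocounts of 0.5 and 5 CPM, and leaving out each library. Per-library values are printed for every member called between letters and for the member of highest mean FPKM in each of 9 roles, and other members were given in full where their values help. Of the wider list, the 3 genes of largest and the 3 of smallest ratio of H to L are named. Marker lists are given as sums, with their 2 most abundant genes for the microglial, inhibitory and pyramidal lists only. The members and lists were chosen with earlier results of these data known. Plots used matplotlib 3.10.9 in Python 3.11.15.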

Additional observations from a re-analysis of the deposited data

How the results depend on the processing

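Counts of members called depended on the scaling. Scaled to 17 pan-neuronal genes, 1 member was called lower (1.58% of all genes were) and 2 higher (37.9%) in H than in L. In H against M, 1 was called lower (3.27%). By total-count CPM and by DESeq2 size factors all 6 counts were within 1.5 times those given above. With no minimum mean, 2 were called higher in H than in L, since Rims1 then passed on 0 to 2 counts. With no minimum fold, 25 were called lower in H than in L (26.2% of all genes were). In M against L, 9 were lower (15.5%) and 1 higher (17%), and 19 were lower in H than in M (21.3%). At 2-fold, 1 was called lower (2.96% of all genes were) and 0 higher (15.1%) in H than in L. In M against L 1 was lower (2.89%), and in H against M 3 were lower (4.02%) and 0 higher (7.92%). Leaving out each library in turn gave 10 to 14 members lower and 1 to 2 higher in H than in L. It gave 1 to 5 lower and 0 to 2 higher in M than in L, and 4 to 9 lower and 2 to 3 higher in H than in M. The shares of all genes were not computed with a library left out, where a lack of overlap is easier for every gene. The changes past 1.5 times were 5 lower in M than in L without M2, 1 lower in M than in L and 9 lower in H than in M without M3, 2 higher in H than in L without L1, and 2 higher in M than in L without L2. The cause was not tested. Of the 60 log2 ratios of medians for the 20 members named by the rule, 39 moved by more than 1 SD within letters under pan-neuronal scaling, 2 under total-count CPM and 0 under DESeq2 size factors. In the 25 of these ratios that were called, the sign held under all 14 alternatives tried on them. A call requires values that do not overlap, so leaving out a library, apart from rescaling, or adding a pseudocount could not change its sign. Only the other scalings could. On the pan-neuronal scale some called ratios of H to L came close to 0, at -0.01 for Slc17a6, -0.06 for Syt5 and -0.07 for Rims2. Of the 35 not called, 17 changed sign under at least 1, 11 of them under pan-neuronal scaling. A count of 0 allows up to 0.158 to 0.246 CPM, depending on the library, counting error only, a limit that bears on Rims1.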

Other observations

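Synpr varied widely within the M and the L libraries, and another gene had a like pattern. The values were chosen after they were seen. Npy, a neuropeptide of interneurons, measured 78.3, 62.7 and 67.9 CPM in H1 to H3, 490.5, 45.4 and 375 CPM in M1 to M3 and 175, 454 and 175 CPM in L1 to L3, and its 3 highest libraries, M1, M3 and L2, were also the 3 highest for Synpr. Prox1, a transcription factor of dentate granule cells, measured 12.5, 12.4 and 11.1 CPM in H1 to H3, 14.4, 3.52 and 14.4 CPM in M1 to M3 and 1.75, 26.01 and 4.25 CPM in L1 to L3, with L2 highest as for Synpr. C1ql2, a mossy fibre synaptic organiser, measured 21.1, 19.5 and 22.9 CPM in H1 to H3, 19.8, 2.69 and 13.4 CPM in M1 to M3 and 5.38, 36.1 and 2.28 CPM in L1 to L3, and here the H libraries were as high as M1. Of 7 dentate granule genes, L2 was the highest library for 6 and M2 the lowest M library for 6, and M1, M3 and L2 were the 3 highest for 2, Prox1 and Plk5. Calb1, the most abundant, did neither, at 214 to 254 CPM in H, 306 to 353 CPM in M, 293 to 405 CPM in L. Which cells carried Synpr was not tested.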
